A study of Drosophila melanogaster with 16 samples.

Results

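The genes described here encode proteins that build and remodel the insect cuticle, together with the Osiris family. They were chosen by symbol, as the names beginning with Cpr, Ccp, Lcp, Pcp, Edg, Twdl, Cht or Osi in the deposited table, and selected on level, as those with an RPKM of 1 or more in at least 2 libraries. RPKM is reads per kilobase of gene, scaled to the mapped reads of the library. Of 156 genes with such a name, 61 met the level, among 9346 genes that met it and 15682 genes in the table. They comprised 17 of 24 Osiris genes, 7 of 10 chitinase (Cht) genes, 10 of 25 Tweedle (Twdl) genes, 25 of 70 Cpr genes, 1 of 17 Lcp genes and 1 of 3 Edg genes. None of the 7 Ccp genes met it, and no symbol began with Pcp. The other 95 genes stayed below the level, and 2 of them were at 0 in every library. Just outside, the second-highest library stood at 0.946 RPKM for Cht8, 0.993 for Cpr73D and 0.9997 for Lcp9. Just inside, it stood at 1.12 for Cpr50Cb, 1.14 for TwdlH and 1.21 for Cpr64Ad.

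The cuticle of insects is an extracellular layer that epithelial cells secrete at their apical surface, built of chitin fibres and cuticle proteins. Proteins of the Cpr family carry the Rebers and Riddiford consensus, which binds chitin, Tweedle proteins are another family of cuticle proteins, and chitinases cut chitin when the old cuticle is digested and the new one is shaped. Osiris genes encode insect-specific membrane proteins, most of which lie in 1 cluster in the Drosophila genome and are best known from cuticle-secreting epithelia such as trachea, epidermis and bristles. In the fly eye, the corneal lens above each unit is itself a cuticle, laid down by cone and pigment cells. Neurons are not known as a source of cuticle, so the level of these genes in sorted neurons is described here beside the markers of other cell types.

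The series holds 16 libraries of total RNA from neurons of the fruit fly Drosophila melanogaster, sorted by flow cytometry after pupal brain tissue had been dissociated with proteases. The types are the lamina neurons L1, L2, L4 and L5 with 2 libraries each, L3 with 4, and the inner photoreceptors R7 and R8 with 2 each. All are labelled as wild type and as optic lobe tissue, and neither the sorting marker nor the animals behind a library are stated, so p-values measure the spread between libraries, which may be technical. Ages are labelled differently by type, with L1 at 24 h, L2 at 35 h, L3 at 40 h, L4 at 45 h, L5 at 53 h, R7 at 65 h and R8 at 96 h into the pupal stage, while the dissection protocol states 40 h throughout. The column names of the deposited values carry the number 40 for every lamina library and no age for R7 and R8. Were the labelled ages right, type and age would be confounded and cannot be told apart in any comparison below. The spacing of low values put library depth at 47.1 to 153.2 M reads, and at that depth 3 reads on 1 kb of exon are worth an RPKM of 0.0196 to 0.0637. The share of mitochondrial reads divided the L3 libraries, at 4.17% in replicate 1 and 3.96% in replicate 2 against 14.6% in replicate 3 and 9.6% in replicate 4. All 5 photoreceptor markers were higher in the photoreceptors than in the lamina neurons and all 6 lamina markers were lower, although the summed photoreceptor markers reached 46.2 to 110.1 RPKM in L3 and at most 22.9 in the other lamina libraries.

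Levels of these genes ranged widely. Only 10 of the 61 reached 1 RPKM in every library, 33 reached 10 RPKM in any library and 10 reached 100. The members at 1 RPKM or more in just 1 type were Cpr50Cb in L4, Cpr72Eb in L3, TwdlG in R7 and TwdlH in L2. These 4 met the level through that type alone, so their p-values for that type are descriptive only. The same holds for TwdlF in R8, TwdlN in L2, and Cpr92F and Cpr97Eb in the photoreceptors. Outside those groups each reached 1 RPKM in a single library of L3 or L4. Cpr30F, Cpr49Ac, Cpr67B and TwdlN reached it in no photoreceptor library, so their p-values against the photoreceptors are descriptive too. Another 19 members reached 1 RPKM in all 7 types. The type with the highest mean level was R8 for 13 of the 17 Osiris genes and 4 of the 7 chitinase genes. The 27 cuticle protein genes outside the Tweedle family had theirs in R8 for 7, in L5 for 6, in L3 and in L4 for 5 each and in L1 and R7 for 2 each. Because the members were selected on these same values, the counts below are descriptions and are set beside the share of all 9346 genes that behaved in the same way.

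**Figure D1:**
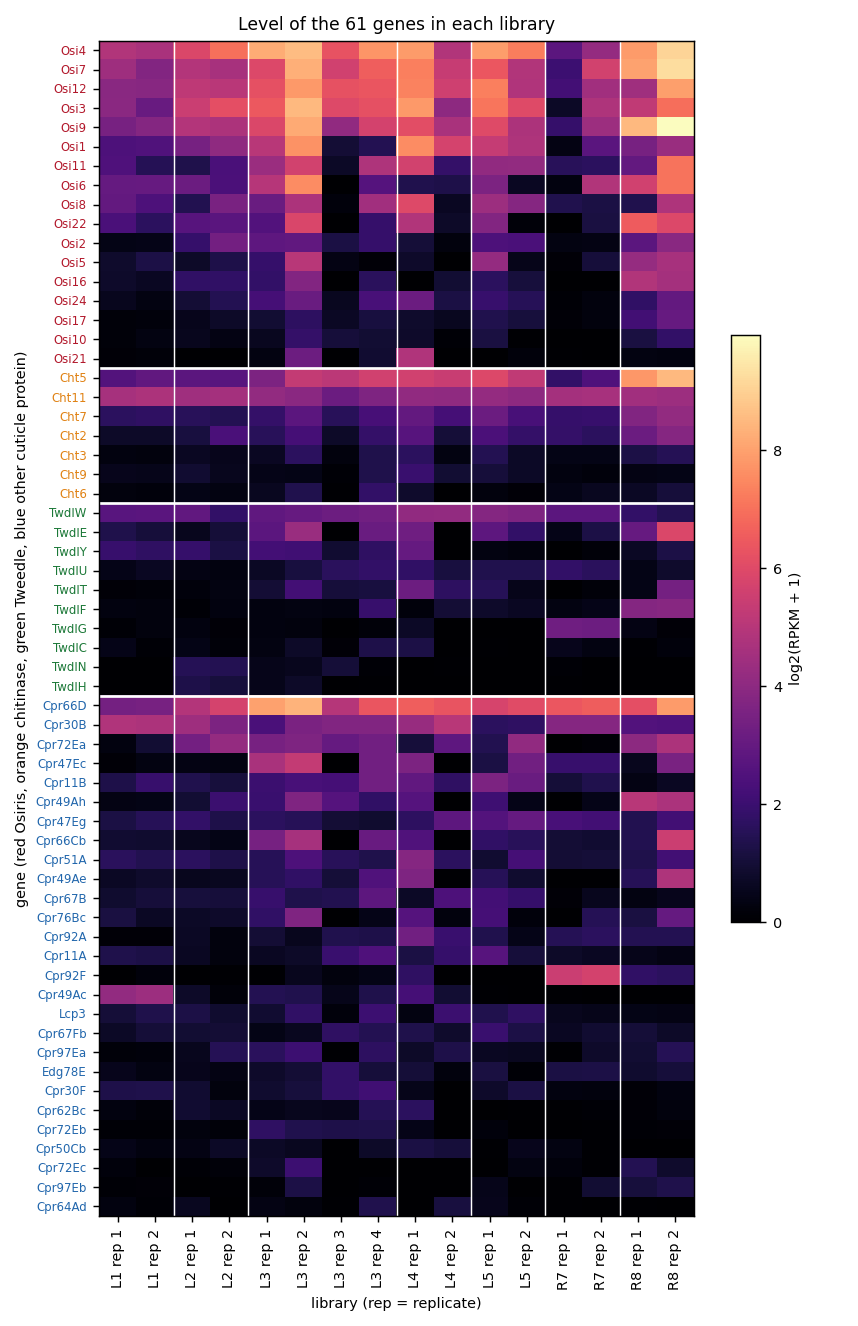
Level of each of the 61 genes (rows, by family and then by mean level) in each of the 16 libraries (columns), as log2(RPKM + 1). The brightest cells are Osi9, Osi7 and Osi4 in R8 replicate 2, and the Osiris rows of L3 replicate 2 are brighter than those of the other 3 L3 libraries.

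The Osiris genes had the highest levels of the group. Osi9 stood at 359.8 and 996.2 RPKM in the R8 libraries and at 2.73 and 19.9 in the R7 libraries. In the lamina neurons it stood at 10.3 and 12.9 RPKM in L1, 29.6 and 26.1 in L2, 68.5 and 25.0 in L4 and 63.3 and 26.1 in L5, and L3 ran from 16.3 to 288.6. Both R8 libraries lay above every other library, and R7 replicate 1 lay below all of them. Osi7 was at 259.8 and 618.7 RPKM in R8, 3.16 and 50.3 in R7, and between 12.4 in L1 and 313.0 in L3 replicate 2 among the lamina libraries. Osi4 was at 235.4 and 536.1 RPKM in R8 against 5.86 and 17.1 in R7. In L3, however, Osi4 reached 300.3 and 377.2 RPKM in replicates 1 and 2, so the R8 and L3 levels of this gene overlapped. Osi3, whose R8 libraries had 36.3 and 121.4 RPKM, was higher in L3 replicate 2 with 364.4 and in L4 replicate 1 with 229.1. Its R7 libraries were far apart, at 0.665 and 27.0 RPKM.

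Osi16 was listed at 0 in both R7 libraries and had 28.6 and 22.8 RPKM in R8, while the lamina libraries ran from 0 to 12.6. Osi22 had 90.9 and 60.1 RPKM in R8, 0.0122 and 1.26 in R7, and between 0 and 56.8 in L3. Osi5 had 17.5 and 24.1 RPKM in R8 and 0.0907 and 1.08 in R7, but the L3 libraries spanned 0.103 to 31.9. Osi6 showed the widest spread of the family: 48.5 and 134.5 RPKM in R8, 0.228 and 28.8 in R7, and from 0.00876 to 190.2 in L3. Osi21, known from fly photoreceptors as diehard4, a gene whose loss slows light-dependent degeneration in phototransduction mutants, was at most 0.245 RPKM in the 4 photoreceptor libraries. Its levels of 28.1 RPKM in L4 replicate 1 and 8.16 in L3 replicate 2 stood against 0 in L4 replicate 2 and at most 0.884 in the other L3 libraries.

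Set against each other, R7 and R8 differed in many of the Osiris genes. Values were compared as log2(RPKM + 1) with limma across all 9346 genes, and a gene was called at an adjusted p (Benjamini and Hochberg) under 0.05. Differences on this scale understate the change of low genes, and in RNA of sorted bulk cells fewer cells of a type and less RNA per cell cannot be told apart. All 17 Osiris genes had a lower mean in R7, with a median difference of -3.31, where the median over all genes tested was 0.015. The test called 8 of the 17 lower in R7, namely Osi2, Osi4, Osi7, Osi9, Osi10, Osi16, Osi17 and Osi22, and none higher. Among all 61 members 13 (21.3%) were called lower in R7 and 3 (4.92%) higher, beside 7.14% and 3.2% of all genes tested. The greatest difference was that of Osi9, at -6.08 ± 1.08 (SE; n = 2 and 2; adjusted p = 0.0023, limma). Within the family Osi22 followed at -5.63 ± 1.65 (adjusted p = 0.048, limma). Osi1, Osi3, Osi5, Osi6, Osi8, Osi11, Osi12, Osi21 and Osi24 were not called, with differences from -0.26 to -3.84 and standard errors from 0.72 to 1.95.

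**Figure D2:**
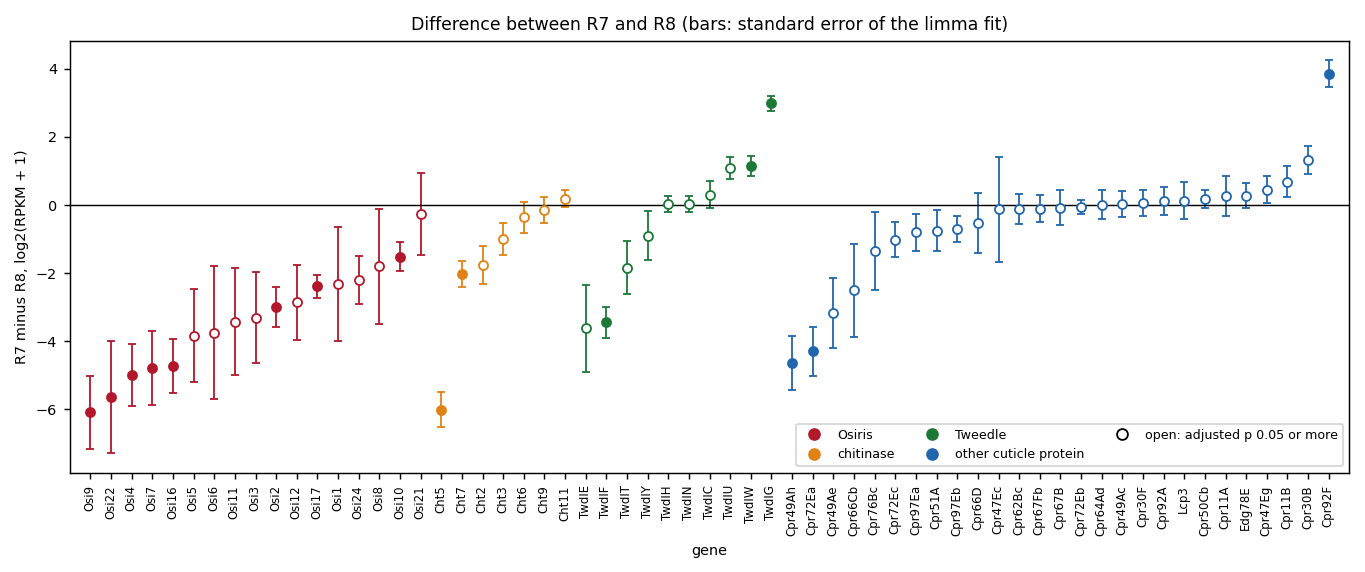
Difference between the mean of the R7 and the mean of the R8 libraries for each gene, on the log2(RPKM + 1) scale, with the standard error of the limma fit. Filled points have an adjusted p under 0.05: 13 lie below 0, among them Osi9 at -6.08 and Cht5 at -6.01, and 3 lie above, with Cpr92F highest at 3.86.

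Counting libraries in place of a test gave the same direction for the family. Both R8 libraries lay above both R7 libraries for 15 of the 17 Osiris genes, 6 of the 7 chitinase genes, 4 of the 10 Tweedle genes and 10 of the other 27 cuticle protein genes, in all 35 members (57.4%) beside 33.7% of all genes tested. The reverse held for 15 members (24.6%), none of them an Osiris gene, beside 36.3%. Osi8 and Osi12 were the Osiris genes that overlapped. Taken over every gene with such a name whatever its level, both R8 libraries were above both R7 libraries for 20 of 24 Osiris genes, 7 of 10 chitinase genes, 6 of 25 Tweedle genes and 23 of the other 97 genes, beside 26.5% of all 15682 genes. The reverse held for 0, 1, 7 and 19 of them, beside 26.3%. The Osiris calls rested on few libraries: without R8 replicate 2 the members called lower in R7 fell from 13 to 8, with those of Osi2 and Cht7 lost and that of Osi7 lost there and without R7 replicate 1. The calls of Osi10 and Osi22 ended without any single R7, R8, L1 or L2 library, and that of Osi22 also without L3 replicate 1 or 4 and under quantile normalization (adjusted p = 0.0565, limma) or a pseudocount of 0.1 (0.0895). Without the filter on low values both calls ended, at adjusted p = 0.0607 for Osi10 and 0.093 for Osi22 (limma). Members called higher in R7 were 1 without either R7 library and 5 without L3 replicate 1, where 3 were called with all libraries. Calls between R7 and R8 held without each library in turn for Osi4, Osi9, Osi16, Osi17, Cht5, Cpr49Ah, Cpr72Ea, TwdlF and Cpr92F. That of TwdlG held in each run that tested it, but without either R7 library TwdlG fell below the level filter and had no test.

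Among the chitinases 2 were lower in R7, with less spread between libraries than the Osiris genes. Cht5, a chitinase of the molting fluid in insects, had 221.5 and 360.8 RPKM in R8 and 2.53 and 4.50 in R7. Lamina libraries had 4.97 and 6.69 RPKM in L1, 5.84 and 5.53 in L2, 48.8 and 41.7 in L4 and 60.3 and 36.5 in L5, and L3 had 11.2, 38.2, 33.7 and 48.2. The groups of R7 and R8 were far apart, with all lamina libraries above R7 and below R8. The difference of -6.01 ± 0.52 between R7 and R8 had an adjusted p of 8.0e-06 (limma, n = 2 and 2). L1 and L2 stood below L4 and L5 without overlap, and the F-test over L1 to L5 gave an adjusted p of 0.00055 (limma). Cht7, a chitinase with several catalytic domains, had 12.1 and 16.7 RPKM in R8, 2.66 and 2.78 in R7 and 1.77 to 7.98 in the lamina, a difference between R7 and R8 of -2.03 ± 0.38 (adjusted p = 0.0034, limma).

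The remaining chitinases were lower or flat. Cht2 had 8.05 and 13.3 RPKM in R8 and 2.56 and 2.14 in R7 and was not called (-1.77 ± 0.56, adjusted p = 0.067, limma). Cht11 was the most even of the members with a high level, between 7.99 RPKM in L3 replicate 3 and 26.3 in L1 replicate 2, with 23.1 and 24.3 in R7 and 21.6 and 19.7 in R8. It was lower in L3 than in the other lamina types by 0.63 ± 0.16 on the log2 scale (-0.63, adjusted p = 0.011, limma), where L3 had 16.8, 14.3, 7.99 and 11.4 RPKM and the other lamina libraries 15.4 to 26.3, a range that overlapped that of L3. Cht3, which the current annotation merges into Cht10, stayed between 0.182 and 2.18 RPKM, and Cht6 between 0.00426 and 2.53. Cht9 reached 2.90 RPKM in L4 replicate 1 and was at most 0.330 in R7 and R8. In the current annotation 76.9% of the exonic bases of Cht9 overlap an antisense RNA, and the strand of the libraries is not given, so its reads are uncertain.

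A few cuticle protein genes ran the other way. Cpr92F had 43.7 and 50.3 RPKM in R7, 2.45 and 2.16 in R8, and at most 0.465 in the lamina libraries except L4 replicate 1 with 2.32. It was higher in R7 than in R8 by 3.86 ± 0.39 (adjusted p = 3.1e-05, limma) and higher in the photoreceptors than in the lamina neurons by 3.38 ± 0.23 (adjusted p = 4.3e-08, limma). TwdlG, which met the level through R7 alone, had 8.75 and 8.38 RPKM in R7, 0.3003 and 0.112 in R8, and at most 0.641 in the lamina. TwdlG differed between R7 and R8 by 2.99 ± 0.22 (adjusted p = 2.6e-06, limma). TwdlF, its neighbour on the chromosome in the current annotation, had 12.9 and 13.8 RPKM in R8 and 0.264 and 0.375 in R7, and reached 2.81 in L3 replicate 4 but at most 0.996 in the other lamina libraries. Its difference was -3.44 ± 0.45 (adjusted p = 0.00024, limma), descriptive only because TwdlF met the level through R8. These adjoining Tweedle genes thus stood high in opposite photoreceptors, each with its libraries close together. TwdlW, with 5.85 and 5.89 RPKM in R7 and 2.52 and 1.74 in R8, was also called higher in R7 (1.14 ± 0.29, adjusted p = 0.022, limma), a call that ended without any 1 of the 4 photoreceptor libraries.

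**Figure D3:**
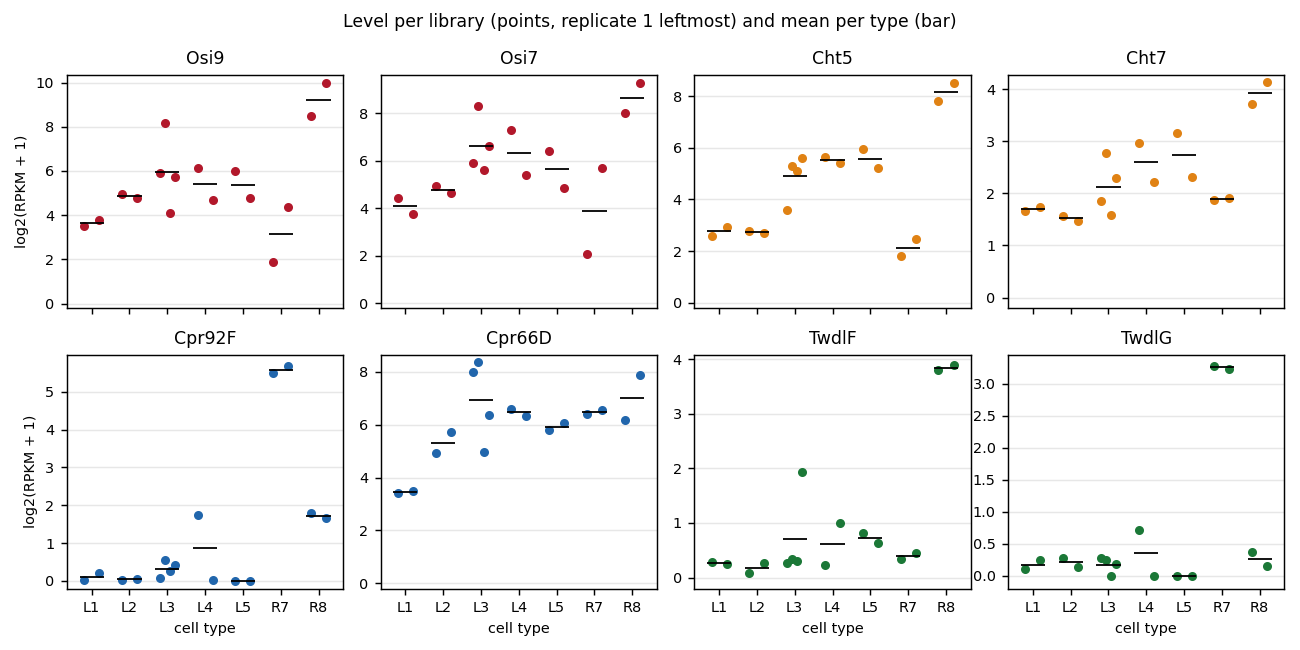
Level of 8 genes in each library (points, log2(RPKM + 1), vertical axes differ) and the mean per type (bars). Osi9, Cht5 and TwdlF are highest in R8, Cpr92F and TwdlG in R7, and Cpr66D is at 9.73 RPKM or more in every library.

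Cpr49Ah and Cpr72Ea were the Cpr genes called lower in R7. Cpr49Ah had 31.8 and 25.6 RPKM in R8 and 0.0132 and 0.375 in R7 (-4.65 ± 0.80, adjusted p = 0.0019, limma), and between 0 and 11.9 in the lamina. Cpr72Ea had 15.0 and 26.1 RPKM in R8, 0.0228 and 0.104 in R7, and up to 17.2 in L2 replicate 2 (-4.29 ± 0.72, adjusted p = 0.0016, limma). The next gene along the chromosome, Cpr72Eb, had a pattern of its own. It had 2.34, 1.64, 1.45 and 1.52 RPKM in L3 and at most 0.364 in any other library, and was called higher in L3 than in the other lamina types by 1.27 ± 0.12 (adjusted p = 6.0e-06, limma). Cpr72Ec, the third of these neighbours, reached 3.13 RPKM in L3 replicate 2 and 1.73 in R8 replicate 1 and was called in no comparison.

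Other genes differed greatly between the libraries of one type. TwdlE had 7.29 and 59.3 RPKM in R8 and 0.379 and 1.42 in R7, and L3 ran from 0.0101 to 18.4. It was not called (-3.61 ± 1.28, adjusted p = 0.11, limma), and 71.9% of its exonic bases overlap lectin-28C in the current annotation, which leaves its reads uncertain. Cpr49Ae had 1.94 and 27.0 RPKM in R8, 0.0219 and 0 in R7, and 11.3 and 0.0419 in L4 (-3.17 ± 1.03, adjusted p = 0.076, limma). Cpr66Cb had 1.70 and 43.9 RPKM in R8. For each of these 3 genes the R8 libraries were further apart in RPKM than the lower R8 library and R7.

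Cpr66D, a structural protein of the corneal lens in the fly eye, was the highest cuticle protein gene. It had 84.4 and 93.3 RPKM in R7, 70.5 and 233.3 in R8, 9.73 and 10.1 in L1, 29.1 and 51.7 in L2, 95.3 and 80.0 in L4 and 54.4 and 65.0 in L5. In L3 it had 255.2, 332.9, 30.3 and 81.5 RPKM, so L3 held both the highest library and one of the lower ones. Both L1 libraries lay below every other library, and the F-test over L1 to L5 gave an adjusted p of 0.021 (limma), a call that ended without either L1 library. R7 and R8 overlapped (-0.53 ± 0.87, adjusted p = 0.88, limma). It was called higher in L3 than in the other lamina types (1.64 ± 0.53, adjusted p = 0.043, limma), and that call ended without L3 replicates 1 and 2 (adjusted p = 0.538, limma) and without each of 12 single libraries. The lens gene Crys, which encodes drosocrystallin and is no member, had 2.57 and 2.90 RPKM in R8, 0.0767 and 0.226 in R7, 6.02 in L5 replicate 1 and 4.51 in L3 replicate 2, and retinin, another lens gene, had 1.88 RPKM in R8 replicate 1 and at most 0.196 elsewhere.

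Most of these genes were not called between photoreceptors as a class and lamina neurons. An uncalled gene may still differ, since the spread between libraries was wide for many of them. Osi6, for example, had a difference of 1.86 ± 1.14 and Osi1 of -1.63 ± 0.98, both uncalled. The test called 9 members (14.8%) higher in R7 and R8 together than in L1 to L5 together and 8 (13.1%) lower, beside 31.7% and 30.2% of all genes tested, so that both shares among the members were below those of all genes. The higher ones were Cht2, Cht5, Cht7, Cpr49Ah, Cpr92F, Cpr97Eb, Osi17, TwdlF and TwdlG. For 7 of these 9 the mean over types was highest in R8, and for Cpr92F and TwdlG in R7. Cht5 illustrates this: its class difference of 0.84 ± 0.30 (adjusted p = 0.029, limma) had R8 above and R7 below every lamina library, and the call ended under quantile normalization (adjusted p = 0.07). The count of members higher fell to 4 without R7 replicate 2 and to 3 without R8 replicate 2, and rose to 15 without L3 replicates 1 and 2. The count of members lower fell to 5 without R7 replicate 2 and to 4 without R8 replicate 1, and rose to 13 without L3 replicates 3 and 4. Calls of the class difference held without each library in turn for Cpr11B, Cpr49Ac, Cpr67B, Cpr92F, TwdlF and TwdlW. That of TwdlG held in each run that tested it, but without either R7 library TwdlG fell below the level filter and had no test.

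The genes lower in photoreceptors were cuticle protein genes. TwdlW had 11.5 to 16.7 RPKM in L4 and L5, 2.55 to 8.99 in L1, L2 and L3 and 1.74 to 5.89 in the photoreceptors, with a class difference of -1.01 ± 0.17 (adjusted p = 0.00019, limma). Cpr11B had 1.14 to 11.1 RPKM in the lamina libraries and 0.302 to 1.64 in the photoreceptors (-1.34 ± 0.26, adjusted p = 0.00062, limma), ranges that overlapped. Cpr49Ac had 16.8 and 19.8 RPKM in L1, at most 3.69 in the other lamina types and at most 0.0303 in the photoreceptors (-1.49 ± 0.22, adjusted p = 8.0e-05, limma). Its L5 libraries, at 0.0492 and 0.0115 RPKM, overlapped those of R7, at 0.0303 and 0.00768, so not all lamina types were above the photoreceptors. Cpr67B had 0.662 to 6.15 RPKM in the lamina and 0.104 to 0.486 in the photoreceptors, groups that did not overlap. Cpr30F, Cpr50Cb, Cpr72Eb and TwdlN were called too, and each of these calls ended without at least 1 photoreceptor library. Cpr72Eb was at most 0.364 RPKM outside L3, and TwdlN at most 0.0461 in L1, L4 and L5.

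Within the lamina 16 members (26.2%) differed among L1 to L5, beside 44.6% of all genes tested. Some marked single types. Cpr49Ac was highest in L1 (adjusted p = 1.2e-05, limma F-test over L1 to L5). TwdlN had 1.79 and 1.76 RPKM and its neighbour TwdlH 1.46 and 1.14 in L2, against at most 1.05 and 0.703 in any other library (adjusted p = 0.00079 and 0.0041, limma). Cpr30B, with 28.1 and 26.0 RPKM in L1 and 17.99 and 31.8 in L4, was at 2.12 and 2.31 in L5 (adjusted p = 0.00031, limma). Cpr92A was highest in L4, at 9.10 and 2.87 RPKM (adjusted p = 0.0027, limma). Of the Osiris genes only Osi2 was called, with 2.73 and 9.31 RPKM in L2 and 0.323 and 0.368 in L1 (adjusted p = 0.013, limma). The count rose to 29 without L3 replicates 3 and 4. Calls among L1 to L5 held without each library in turn for Cht5, Cpr30B, Cpr49Ac, Cpr72Eb, Cpr92A, Osi2, TwdlN and TwdlW. That of TwdlH held in each run that tested it, but without either L2 library TwdlH fell below the level filter and had no test.

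Against the other lamina types, the members higher in L3 were Cpr30F, Cpr66D and Cpr72Eb (3 of 61, 4.92%, beside 12.5% of all genes) and those lower were Cht11 and Cpr47Eg (2 of 61, 3.28%, beside 10.0%). The calls of Cpr72Eb and Cht11 held without each library in turn, and that of Cht11 ended without L3 replicates 3 and 4 together (adjusted p = 0.0545, limma). The count of members higher rose to 11 without L3 replicates 3 and 4 together, 10 without L3 replicate 3, 8 without L4 replicate 1 and 5 without L3 replicate 1, and fell to 1 without either library of L1 or R7 or without L2 replicate 2. The count of members lower was 1 without either library of L1 or R7, L2 replicate 1, L3 replicate 3 or 4, or L5 replicate 2.

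The spread between libraries of one type was wide for these genes, above all the Osiris genes. The residual standard deviation of log2(RPKM + 1) over the 7 types had a median of 0.291 over all genes tested, 0.596 over the 61 members and 1.30 over the Osiris genes. It lay above the 90th percentile of all genes (0.545) for 33 members, 15 of them Osiris. The summed RPKM of the 17 Osiris genes shows which libraries were high. It was 20.7 and 177.1 in R7, 1130 and 2972 in R8, 117.3 and 94.9 in L1, 231.1 and 336.0 in L2, 1226 and 217.0 in L4, 812.4 and 361.9 in L5, and 690.0, 2168, 283.3 and 586.8 in L3. One library of each pair in R7, R8, L4 and L5 was thus well above the other, L3 replicate 2 was above all other lamina libraries, and the libraries of L1 and of L2 were closer together.

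Counts of genes bear this out against the background, in a direction chosen after the values were seen. In R8, 17 members (10 Osiris) were higher in replicate 2 than in replicate 1 by more than 1 on the log2 scale, beside 1.01% of all genes. In R7 they were 9 (8 Osiris) beside 0.439%, again higher in replicate 2. L3 replicate 2 was above replicate 1 for 23 members (13 Osiris) beside 3.66%, and above replicate 3 for 32 (16 Osiris) beside 16.5%. L4 replicate 1 was above replicate 2 for 29 members (11 Osiris) beside 9.07%, and L5 replicate 1 above replicate 2 for 13 (8 Osiris) beside 3.22%. L2 replicate 2 was above replicate 1 for 5 (3 Osiris) beside 1.04%, and L1 replicate 2 above replicate 1 for 0 beside 0.278%. For the Osiris genes the median difference was 3.18 between L3 replicates 2 and 3 and 1.85 between L4 replicates 1 and 2, where the medians of all genes were 0.296 and -0.135. Of the 7 chitinase genes, in the same directions, none moved by more than 1 on the log2 scale in R7, R8, L5 or L1 and 1 did in L2, while 3 did in L4, 2 between L3 replicates 2 and 1 and 4 between L3 replicates 2 and 3.

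**Figure D4:**
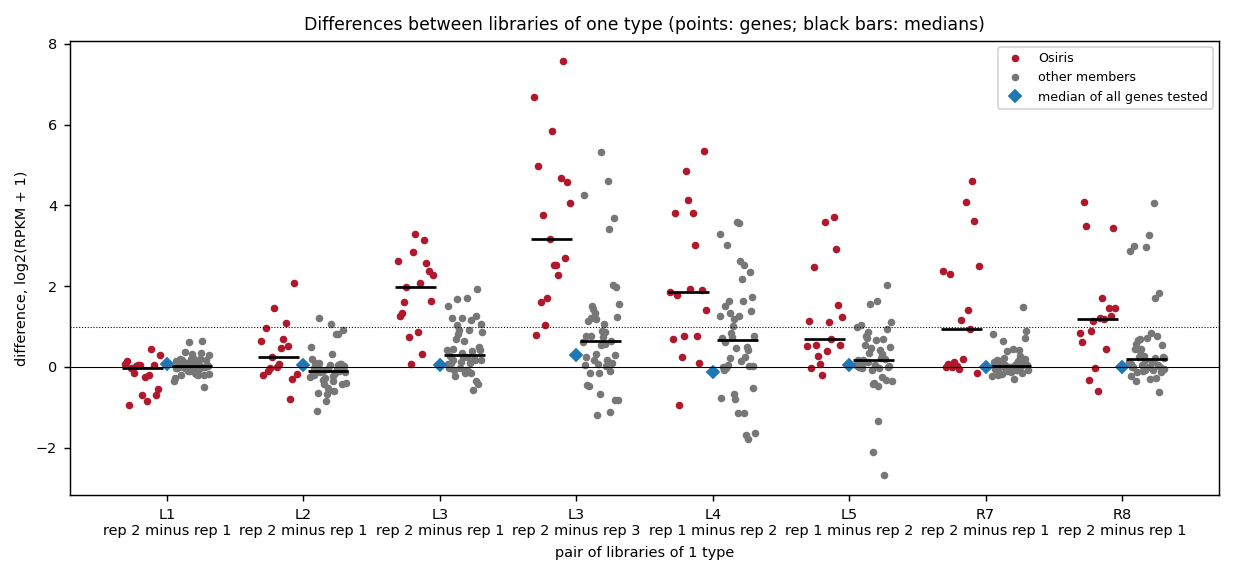
Difference in log2(RPKM + 1) between 2 libraries of one type for each Osiris gene (red) and each other member (grey), with their medians (black bars) and the median of all genes tested (blue). The Osiris median is 1.18 in R8, 0.93 in R7 and 3.18 between L3 replicates 2 and 3, while the pair of L1 libraries lies near 0.

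Markers of other cell types moved with some of these libraries, and their part in the results was not tested. Of 7 glial markers, 6 passed the level filter. All 7 summed to 33.8 RPKM in L3 replicate 2 and 8.38 to 15.4 in the other L3 libraries. This sum was 25.7 and 8.77 RPKM in L4 replicates 1 and 2, 8.90 and 11.2 in R8 and 4.45 and 3.92 in R7. In L4 replicates 1 and 2 most of the change was in gcm, at 10.3 and 0.120 RPKM, and Gs2, at 9.67 and 5.96. The glial factor repo was at most 1.18 RPKM, in R8 replicate 2, and wrapper was 1.61 and 2.55 in R8 and 0.0247 and 0.0439 in R7. Of the 6 tested, moody and wrapper were called lower in R7 than in R8. Gs2, alrm, Eaat1 and gcm were not called between these types. Of 8 epidermal markers 2 passed, the actin-bundling genes f and sn, which were higher in R7 than in R8. The other 6, among them grh, the factor of cuticle-forming epithelia, were at most 1.02 RPKM anywhere. Even so grh was 0.0376 and 0.0509 RPKM in R7, 0.647 and 0.877 in R8, and 1.02 and 0.0708 in L4 replicates 1 and 2. Of 8 cone and pigment cell markers 7 passed and 1, dve, was lower in R7. All 8 summed to 88.4 to 94.0 RPKM in R7 and 139.6 to 150.6 in R8. Every lamina library had a higher sum than R8, from 155.0 RPKM in L5 to 325.9 in L2. Most of each lamina sum was rst, at 93.6 to 242.1 RPKM there and 14.9 to 29.7 in the photoreceptors. The gene dve was at 4.68 and 4.96 RPKM in R7 and 42.7 and 49.7 in R8. The markers ct, sv, lz and Crys were at most 6.02 RPKM anywhere, with means lower in R7 than in R8 but not called. Of 4 bristle markers 2 passed, and all 4 summed to 20.01 to 23.3 RPKM in R7 and 21.2 to 21.9 in R8. Most of this was neur, at 19.5 to 22.8 RPKM in the photoreceptor libraries, while Poxn was at most 0.0939. Of 6 fat body genes 2 passed, and all 6 summed to 13.9 RPKM in L3 replicate 2 and at most 4.38 elsewhere. Of 6 blood cell markers 2 passed, and apart from Pxn, which was at 13.7 RPKM or more in every lamina library, none exceeded 1.86 RPKM.

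The Osiris genes adjoin one another, and levels could be followed along the block. In the current annotation 29 genes stand on 3R from Osi1 to Osi20, 22 of them Osiris and 7 others. It holds 21 of the 24 Osiris genes measured, 15 of them members, and Osi21, Osi22 and Osi23 lie elsewhere. High genes were Osi3, Osi4, Osi7, Osi9 and Osi12, with lower ones such as Osi5, Osi8 and Osi10 between them. At the far end Osi13, Osi14, Osi15, Osi18, Osi19 and Osi20 had at most 1.76 RPKM in any library, and 4 of these 6 had their highest value in R8 replicate 2. Osi10 of the table is divided in the current annotation, so its value may combine 2 genes. Of the others in the block, the neuropeptide F receptor gene NPFR, listed as NPFR1, was also lower in R7 (0.129 and 0.461 RPKM against 2.36 and 1.74 in R8, difference -1.24, adjusted p = 0.0027, limma). NPFR met the level through R8 alone, with at most 0.711 RPKM elsewhere, so its p-value is descriptive only. CG31560 had 1.35 RPKM in R8 replicate 2 and was not called (-0.79, adjusted p = 0.139, limma), and the pseudogene CR31562, CG15597 and CG15594 stayed below the level. Osi22, outside the block, differed between R7 and R8 in the same direction as the genes in it.

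**Figure D5:**
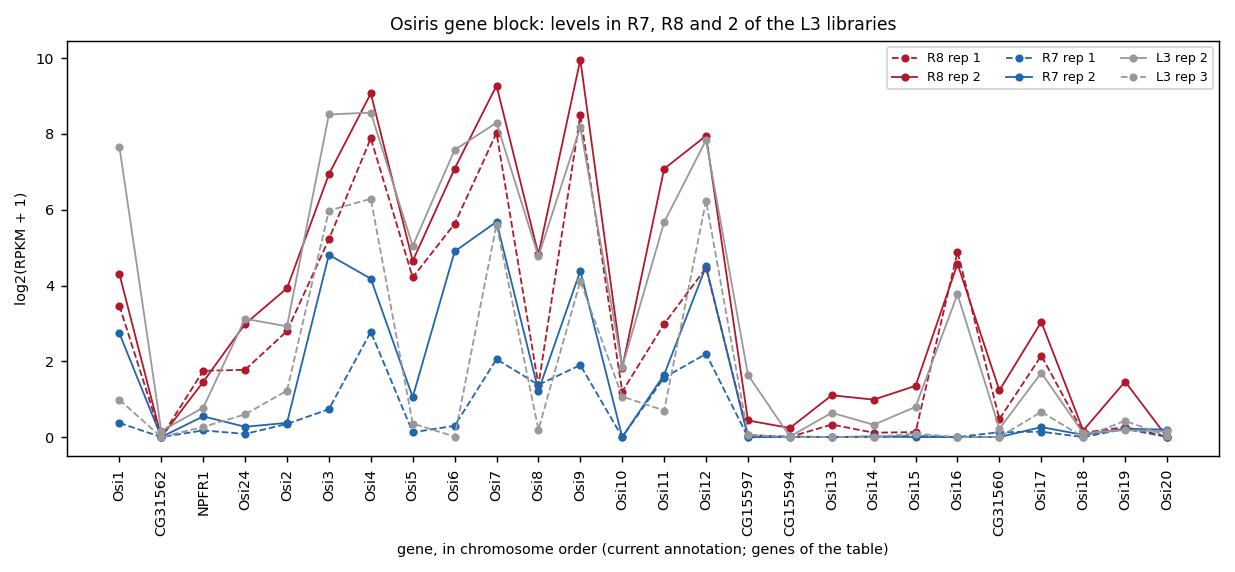
Level of the genes of the Osiris block in the order of the current annotation, as log2(RPKM + 1), in both R7 libraries (blue), both R8 libraries (red) and L3 replicates 2 and 3 (grey). R8 replicate 2 peaks at Osi9 with 996.2 RPKM and L3 replicate 2 at Osi4 with 377.2, and the R7 libraries and L3 replicate 3 lie below these for every member of the block.

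Across the 16 libraries the mean log2 level of the Osiris genes served to find genes of like pattern, as a description with no test, since libraries of 1 type and of unequal depth enter together. Among members Pearson's r with this mean ran from -0.48 for Cpr30B to 0.94 for Osi9, whose own level is part of the mean. Outside the family it was highest for TwdlE (0.91) and Cht3 (0.88), and it was -0.43 for TwdlG and -0.27 for Cpr92F. Over all genes tested outside the members the 5 most alike were dyl (0.962), CG16786 (0.947), CG12017 (0.932), CG4678 (0.926) and CG2663 (0.920). The gene dyl (dusky-like) encodes a zona pellucida protein of the apical matrix of bristles. It had 26.2 and 54.0 RPKM in R8, 0.154 and 1.91 in R7, 31.2 in L3 replicate 2 and 1.87 in L3 replicate 3.

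Further genes of cuticle formation were lower in R7 than in R8. Of 29 genes of chitin synthesis and assembly 23 passed the level filter, and 8 were lower in R7 and 0 higher (median difference -0.92), where 7.14% and 3.2% of all genes tested were called. The chitin synthase gene kkv had 0.0688 and 0.263 RPKM in R7, 4.97 and 8.90 in R8 and 0.278 to 4.37 in the lamina (-2.73 ± 0.35, adjusted p = 0.000185, limma). The others called were knk, which protects new chitin, the chitin-binding obstructor genes obst-A and obst-B, the chitin deacetylase gene Cda4, Gfat1, which starts the synthesis of its sugar precursor, and Idgf4 and Idgf6, relatives of chitinases without enzyme activity. Without R7 replicate 1 or R8 replicate 2 the count was 4. Of 12 zona pellucida genes of the apical matrix 10 passed, and dyl, pio, nyo, neo, mey and tyn were lower in R7, none higher. For tyn the levels were 1.30 and 1.49 RPKM in R7 and 24.0 and 27.8 in R8 (-3.49 ± 0.54, adjusted p = 0.00084, limma). That count was 4 without R7 replicate 1 or R8 replicate 2 as well. Against the lamina neurons 4 chitin genes were higher and 4 lower in photoreceptors, and 2 zona pellucida genes were higher, where 31.7% of all genes tested were called higher and 30.2% lower. The count of zona pellucida genes fell to 0 without any 1 photoreceptor library, L1 replicate 1 or L5 replicate 1 and to 1 without 6 other libraries. The count of chitin genes higher was 7 without L3 replicate 2.

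Genes of tanning, which darken and crosslink cuticle, went both ways. Of 12 listed, 11 were in the table and 7 passed. The yellow gene y had 25.8 and 23.0 RPKM in R7 and 106.0 and 82.3 in R8 (-1.89 ± 0.22, adjusted p = 7.1e-05, limma), and resilin, an elastic cuticle protein, was lower in R7 too. Pu and Dat, which serve pteridine synthesis and amine inactivation, were higher in R7. Both counts of 2 fell to 1 or 0 without some photoreceptor libraries: 1 lower without R7 replicate 1 or R8 replicate 2, 1 higher without the same libraries, and 0 higher without R7 replicate 2 or R8 replicate 1. Of 15 genes that respond to the molting hormone ecdysone 14 passed, and ImpL1, ImpE2, ImpE3 and Eip78C were lower in R7, none higher. ImpL1 had 2.04 and 9.71 RPKM in R7 and 1389.5 and 1595 in R8 (-8.03 ± 0.57, adjusted p = 1.9e-06, limma).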

How the data were processed

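RNA of sorted neurons was sequenced in 16 libraries: L3 has 4, and the other 6 types have 2 each. The authors deposited RPKM values for 15682 genes with 1 column per library, and no sample column was left unused. TopHat and build BDGP5 are named for the alignment per the submitters' processing notes, and no version, counting tool, annotation or strand is given in the sources used here. The members and gene lists were chosen with earlier results of these data known.

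Values were used as deposited. Genes at 1 RPKM or more in at least 2 libraries (9346) were fitted as log2(RPKM + 1) by limma 3.58.1 (R 4.3.3), using 1 mean per type and a variance trend. The contrasts were R7 and R8 against L1 to L5, R7 against R8, L3 against the other lamina types, and an F-test over L1 to L5. The Benjamini and Hochberg adjustment ran over all genes tested, with calls made under 0.05. The fit was tested on simulated data. Alternatives were quantile normalization, no filter, a pseudocount of 0.1, replicate number as a block, and leaving out each library or L3 replicates in pairs. The lists of cuticle pathways were run under them by a choice made after seeing the data.

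Depth was estimated from the spacing of low values, of which 70.6 to 74.2% lay within 0.05 of a whole read, too few for a test on reads. Intervals from it cover counting error only. Printed in full were the 3 marker genes and, per family, those highest in any type or with the greatest differences, and other members were named freely. The non-members named are listed genes, the 5 most like the Osiris mean, and those in the Osiris block. Neighbours and exon overlap come from the current annotation, a later build, and no coordinates were used. Python 3.11.15 with pandas 2.3.3, numpy 2.4.6 and matplotlib 3.10.9 drew the figures.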

Additional observations from a re-analysis of the deposited data

Results flagged for a closer look

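Among the 4 L3 libraries, 1 library lay far from the other 3 for 15 of the 61 genes (24.6%), beside 6.24% of all 9346 genes tested. The rule is set to flag about 1 in 20 among normally distributed values, a rate that these RPKM values need not follow. For 11 of the 15 genes the far library was L3 replicate 2, and 8 of the 15 were Osiris genes. L3 replicate 2 was the far, high library for 1.5% of all genes tested. In that library Osi1 had 202.2 RPKM, Osi12 227.7, Osi21 8.159, Osi22 56.78 and Osi3 364.4. Osi5 had 31.9 RPKM there, Osi6 190.2 and Osi9 288.6. The other genes high in L3 replicate 2 were TwdlT with 3.63 RPKM, Cpr51A with 4.398 and Cpr97Eb with 1.373. L3 replicate 4 was the high library for TwdlF with 2.815 RPKM, Cpr11B with 9.127, Cpr62Bc with 1.83 and Cpr64Ad with 1.575. The summed glial markers were 33.8 RPKM in L3 replicate 2 and 8.38 to 15.4 in the other L3 libraries, and their part in these values was not tested.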

How the results depend on the processing

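No member that was called changed direction under any alternative run in which it was tested. Nor did any gene of the chitin, zona pellucida, tanning and ecdysone lists that was called between R7 and R8. The direction of other calls of listed genes was not followed across the runs. A gene below the level filter in a run had no test there and is left out of the counts that follow. Among the calls and settings of single genes, 1670 stayed on their side of the threshold, 178 lost the call and 11 gained one, and the cause was not tested. With replicate number as a replicate block, 13 members were lower in photoreceptors than in lamina neurons (8 without the block) and 5 higher in R7 than in R8 (3). In the same run 12 were higher in L3 (3), 1 lower in L3 (2) and 27 differed among L1 to L5 (16). Replicate numbers 3 and 4 occur in L3 alone, so the block also takes those 2 libraries out of the L3 mean. It is therefore not separate from leaving them out: the L3 difference of Cht11 was -0.304 in both runs. The calls of Cht11 in L3 (adjusted p = 0.0571, limma) and of Osi10 between R7 and R8 (0.0561) ended with the replicate block, where leaving out single libraries gave 0.00308 to 0.0313 and 0.0153 to 0.320. Same-numbered libraries deviated together beyond a correlation of 0.1 in 9 of 21 pairs of types (-0.0576 to 0.320). All 14 libraries compared were on average nearer to their own number, a hint from the data and not the design. In this measure the 2 libraries of a type mirror each other, so the 14 count each type 2 times. Quantile normalization gave 4 members lower in L3. Without the filter 5 were higher in R7, 6 higher in L3 and 1 lower in L3. Without L3 replicates 1 and 2, 15 were higher in photoreceptors (9), 5 higher in R7 and 5 higher in L3. Without L3 replicates 3 and 4, 13 were lower in photoreceptors, 5 higher in R7, 11 higher in L3, 1 lower in L3 and 29 differed among L1 to L5. Leaving out 1 library at a time gave 3 to 13 members higher and 4 to 11 lower in photoreceptors, 1 to 5 higher and 8 to 16 lower in R7, 1 to 10 higher and 1 to 2 lower in L3, and 12 to 24 differing among L1 to L5. With 1 library left in a type, that library is assumed to vary like the others. Low members are limited by depth: an RPKM under 0.0637 can rest on fewer than 3 reads per kb in the shallowest library.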
